A study of Mus musculus with 10 samples.

Results

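The ends of the mouse autosomes were examined in peak lists of sperm chromatin accessibility. Intervals of the 10 lists that overlapped by at least 1 bp were merged, and a merged region was kept as a consensus region where at least 2 libraries had a peak. Of 24550 consensus regions on chromosomes 1 to 19, 595 ended before base 6000000 and form the centromere side, and 785 started within 3 Mb of the chromosome end and form the telomere side. Together the 1380 members were compared with the other 23170 regions of the same chromosomes. The whole series held 24763 consensus regions.

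Accessibility was measured with ATAC-seq, an assay that marks open DNA by transposase insertion, in mature sperm from the cauda epididymis. The samples were 6 F0 CD and 4 F0 WD libraries, named after the diets of the males, which were wild type C57BL/6JRccHsd mice on a control chow or on Western diet D12079B for 6 months. These numbers come from the sample titles, whereas the protocol text in the labels gives 4 and 6. Each list was called on its own library, without pooling, and the lists held 13366 to 29532 peaks.

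Mouse chromosomes are telocentric, so that the centromere lies at the start of the numbered sequence and a telomere lies close behind it. Blocks of satellite DNA surround the centromere and are largely missing from the reference, followed by duplicated segments, while the distal end carries the telomere and the subtelomeric segment. In sperm most histones are replaced by protamines, which pack the DNA tightly, and the histones that stay behind have been described at promoters and at repeats. In mm10 every autosome begins with at least 3 Mb of unknown bases (N) and ends with at least 100 kb of them, so the centromere side held 56.5 Mb and the telomere side 54.6 Mb of readable sequence. The true centromere and the outermost telomere were therefore not covered, and the members lie beside them. How far the reference of C57BL/6J describes these ends in C57BL/6JRccHsd males was not tested.

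The letters of the strongest shared members of each side are shown first. To which repeats or gene copies these letters belong was not tested beyond the shared words and the spacing given below. Members with a peak in all 10 libraries were ordered by the median rank of their fold enrichment within the lists. From the top of this order 5 were taken on the centromere side and 4 are shown on the telomere side, with at most 2 per chromosome end. Each sequence is 200 bases of the plus strand of GRCm38, and the capitals mark the 21 bases centred on the summit of the best ranked peak. The centromere side gave the following sequences.
chr2:3964458-3964657: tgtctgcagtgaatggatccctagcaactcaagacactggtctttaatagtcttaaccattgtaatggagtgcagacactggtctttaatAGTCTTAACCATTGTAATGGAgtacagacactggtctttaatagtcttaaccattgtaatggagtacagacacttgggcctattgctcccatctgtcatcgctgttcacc
chr12:3109906-3110105: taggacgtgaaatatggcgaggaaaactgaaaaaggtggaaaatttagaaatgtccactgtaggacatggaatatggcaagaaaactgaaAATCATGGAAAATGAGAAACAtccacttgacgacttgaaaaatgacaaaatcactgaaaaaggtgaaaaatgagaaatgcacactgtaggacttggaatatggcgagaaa
chr2:3050151-3050350: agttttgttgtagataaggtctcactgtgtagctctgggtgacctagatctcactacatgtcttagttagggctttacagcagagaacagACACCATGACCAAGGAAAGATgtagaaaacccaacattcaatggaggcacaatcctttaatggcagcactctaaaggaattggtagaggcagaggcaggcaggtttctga
chr3:5860540-5860739: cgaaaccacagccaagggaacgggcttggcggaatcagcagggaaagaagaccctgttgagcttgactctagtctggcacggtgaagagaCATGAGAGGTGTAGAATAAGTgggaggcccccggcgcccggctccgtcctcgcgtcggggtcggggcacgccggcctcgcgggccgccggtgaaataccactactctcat
chr9:3025441-3025640: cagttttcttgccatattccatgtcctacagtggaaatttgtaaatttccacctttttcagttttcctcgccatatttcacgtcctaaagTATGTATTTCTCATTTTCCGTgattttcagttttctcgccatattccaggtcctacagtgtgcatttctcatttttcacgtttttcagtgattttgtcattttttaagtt

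The chromosome 12 sequence and the chromosome 9 sequence shared 55 words of 20 bases, counted on either strand. Both belonged to the largest group of related members. Among the 81 members found in all 10 libraries, 31 fell into 6 groups whose members were linked by at least 10 shared words, and the largest group held 17 regions, of which 14 lay on chromosome 9, 2 on chromosome 11 and 1 on chromosome 12. The block on chromosome 9 from 2999921 to 3038314 repeated itself at a spacing of 234 bases, where 71.3% of the bases were the same, against a median of 31.3% over all spacings from 20 to 399 bases. This spacing is the length of the unit of the mouse major satellite, the tandem repeat of pericentromeric heterochromatin. The telomere side gave the following sequences.
chr2:181917388-181917587: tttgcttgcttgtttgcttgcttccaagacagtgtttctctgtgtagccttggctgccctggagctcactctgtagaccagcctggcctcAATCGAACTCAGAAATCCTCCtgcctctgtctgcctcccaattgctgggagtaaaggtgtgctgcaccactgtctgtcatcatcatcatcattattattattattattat
chr9:123461923-123462122: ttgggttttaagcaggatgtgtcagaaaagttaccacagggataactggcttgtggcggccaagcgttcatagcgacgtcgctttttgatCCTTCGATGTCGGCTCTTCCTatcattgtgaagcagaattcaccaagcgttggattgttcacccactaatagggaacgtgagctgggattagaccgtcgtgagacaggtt
chr19:61199647-61199846: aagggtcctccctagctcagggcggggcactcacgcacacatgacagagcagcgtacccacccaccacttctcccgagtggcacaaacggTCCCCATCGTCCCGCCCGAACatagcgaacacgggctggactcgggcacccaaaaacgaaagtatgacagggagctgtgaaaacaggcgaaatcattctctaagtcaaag
chr1:195241633-195241832: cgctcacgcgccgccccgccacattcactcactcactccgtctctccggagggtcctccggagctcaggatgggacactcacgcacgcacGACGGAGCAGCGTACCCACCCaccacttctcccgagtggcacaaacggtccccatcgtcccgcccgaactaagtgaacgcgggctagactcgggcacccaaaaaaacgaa

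The sequences on chromosomes 19 and 1 shared 46 words of 20 bases. The other printed pairs shared none.

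Both ends held more regions per Mb than the rest of their chromosomes in every library. For each library the number of consensus regions with a peak was divided by the number expected from the density on the rest of the same chromosomes, computed chromosome by chromosome over bases other than N. The mean ratio was 1.27 on the centromere side, with libraries between 1.12 and 1.38 (mean log2 ratio 0.34 ± 0.084, SD, n = 10). The mean ratio was 1.53 on the telomere side, with libraries between 1.39 and 1.71 (0.61 ± 0.104). Each was above 1 in 10 of 10 libraries, with p = 0.00195 by an exact two-sided sign-flip permutation test over libraries, the smallest p this design allows. The centromere side was below the telomere side in 10 of 10 libraries, with a mean difference of -0.27 on the log2 scale (exact p = 0.00195). Since all libraries share 1 genome, these p-values speak for the libraries and not for other chromosomes.

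**Figure D1:**
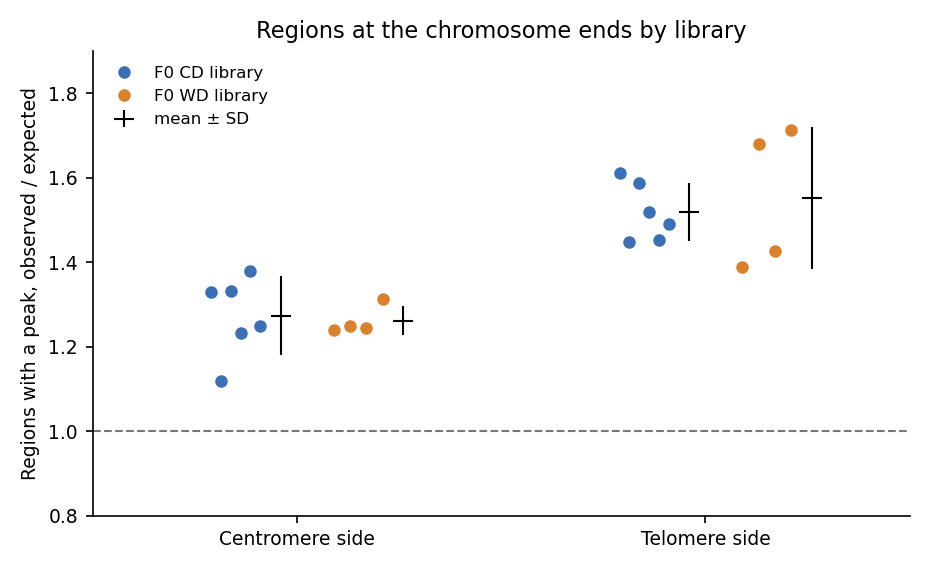
Observed over expected number of regions with a peak (y axis, no unit) on the centromere and the telomere side, with 1 point per library, blue for F0 CD (n = 6) and orange for F0 WD (n = 4), and black bars for mean ± SD. Every point lies above the dashed line at 1, and the points of the diets overlap on both sides.

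The lowest centromere-side ratio, 1.12, belonged to F0 CD replicate 2, which had the longest list, with 364 centromere-side regions against 325 expected. The highest, 1.38, belonged to F0 CD replicate 5, with 232 against 168. Counting regions instead of regions per library, the centromere side held 595 against 576 expected, a ratio of 1.03, and the telomere side 785 against 556, a ratio of 1.41. The centromere side thus stood apart mainly by regions that many libraries shared, as the counts of shared libraries below show. With peaks of 1 library admitted, its mean log2 ratio was 0.069, and with regions of more than 50% multi-copy words left out it was 0.18. That filter kept members of the largest group of related regions, such as 3025390 on chromosome 9 (37.5%) and 3109783 on chromosome 12 (45.2%). It also counts only copies in the reference, so the value of 0.18 does not stand for sequence free of copies.

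The position within each end mattered more than the end as a whole. On the centromere side, the first 0.5 Mb of sequence held 184 members at 20.4 per Mb, and a library had a peak in 11.2 ± 1.02 of them per Mb (SD, n = 10). This step was counted from 3 Mb on every chromosome, also where unknown bases reach further, as to 3.1 Mb on chromosome 11. It held 9.04 Mb of readable sequence. In the next 5 steps of 0.5 Mb this value lay between 2.77 and 4.22 per Mb. For the first 0.5 Mb alone, the observed number was 3.11 times the expected one, with libraries between 2.28 and 4.00 (10 of 10 above 1, p = 0.00195, exact sign-flip test). Without it, the remaining 411 members lay below expectation in 10 of 10 libraries, at a ratio of 0.907 with libraries between 0.811 and 0.972 (exact p = 0.00195). The centromere-side excess therefore sat in the first 0.5 Mb. This division was chosen after the profile had been seen.

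The telomere side showed the opposite order. The outermost 0.5 Mb held 38 members, or 5.21 per Mb, the next step 7.81 and the third 10.2 per Mb, and the density then rose to 23.6 per Mb at 2.5 to 3 Mb from the end. Just outside the limit, at 3 to 3.5 Mb, it stood at 28.1 per Mb, and it stayed between 17.1 and 23.9 per Mb in each further step out to 12 Mb. Hence the telomere side is the outer slope of a broad distal zone rich in regions. For the last 1 Mb alone the ratio was 0.819, with 2 of 10 libraries above 1 (p = 0.0117, exact sign-flip test). With the last 1.5 Mb left out, the ratio was 2.11, with libraries between 1.91 and 2.37. Against the next 3 Mb of the same chromosomes, the telomere side held fewer regions in 10 of 10 libraries, at a ratio of 0.644, while the centromere side held more than its next 3 Mb in 10 of 10, at a ratio of 1.57 (exact p = 0.00195 each). These divisions and references were also chosen after the profile had been seen.

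**Figure D2:**
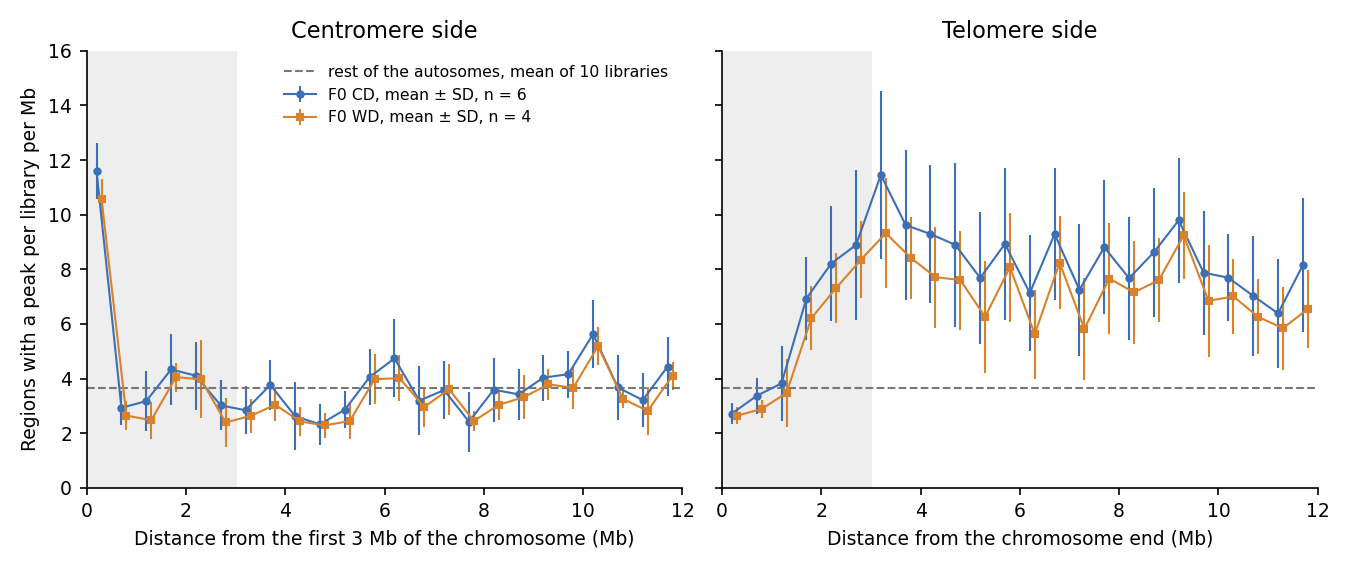
Regions with a peak per library per Mb (y axis) in steps of 0.5 Mb from 3 Mb along each chromosome (left) and from the chromosome end (right), as mean ± SD of F0 CD (n = 6) and F0 WD (n = 4) libraries, with the member windows shaded and the mean of the rest as a dashed line. The centromere side shows 1 high step at the start, and the telomere side rises from 2.69 per Mb in its outermost step to 8.68 at the inner limit of the window and 10.6 just beyond it (means of 10 libraries).

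Base composition changed along the same steps. From the outermost to the innermost telomere-side step, the GC content rose from 41.2% to 45.0% and the number of CA or TG runs of at least 10 units rose from 61.8 to 119 per Mb, while repeat-masked bases fell from 44.1% to 27.7%. On the centromere side the first step had 42.2% GC, 44.9% masked bases and 81.3 runs per Mb, and the second had 42.1%, 39.6% and 85.4, while regions fell from 20.4 to 8.04 per Mb. Over the whole windows, GC content was 42.1% on the centromere side, 43.2% on the telomere side and 41.9% in the rest. The part of base composition in the density was not tested. Regions with a CA or TG run numbered 4.56 per 100 such runs in the centromere-side sequence, 6.43 on the telomere side and 4.44 in the rest, and regions without a run numbered 6.34, 7.98 and 5.35 per Mb, so both kinds were denser on the telomere side.

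Single chromosome ends differed widely. Centromere-side ratios of members over expected ran from 0.187 on chromosome 14 to 2.19 on chromosome 11, and 9 chromosomes lay above 1 and 10 below. The highest were chromosome 11 with 62 members against 28.3 expected, chromosome 2 with 57 against 27.9 (2.04) and chromosome 16 with 45 against 24.8 (1.82). The lowest were chromosome 14 with 5 against 26.8, chromosome 1 with 8 against 29.0 (0.276) and chromosome 19 with 18 against 31.3 (0.575). Libraries had peaks in 32 to 41 regions of the chromosome 11 end and in only 1 to 4 of the chromosome 14 end, so these ends did not overlap in any library.

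Telomere-side ratios ran from 0.173 on chromosome 17 to 3.74 on chromosome 16, with 14 chromosomes above 1 and 5 below. The highest were chromosome 16 with 91 members against 24.4 expected, chromosome 2 with 73 against 27.5 (2.66) and chromosome 4 with 71 against 27.7 (2.56). The lowest were chromosome 17 with 6 against 34.7, chromosome 18 with 7 against 30.5 (0.229) and chromosome 10 with 16 against 32.8 (0.488). Each library had 22 to 51 regions on the chromosome 16 end and 0 to 4 on the chromosome 17 end. Across the 19 telomere-side windows, members per Mb ran with GC content (Pearson's r 0.711, Spearman's rank correlation 0.796) and with CA or TG runs per Mb (0.711 and 0.718), and less with the number of protein-coding genes (0.189 and 0.469). On the centromere side the same values were 0.459 and 0.468 for GC content, 0.747 and 0.774 for the runs and -0.154 and -0.022 for genes. These are descriptions over windows that share all libraries, and GC content and runs are not independent of each other.

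**Figure D3:**
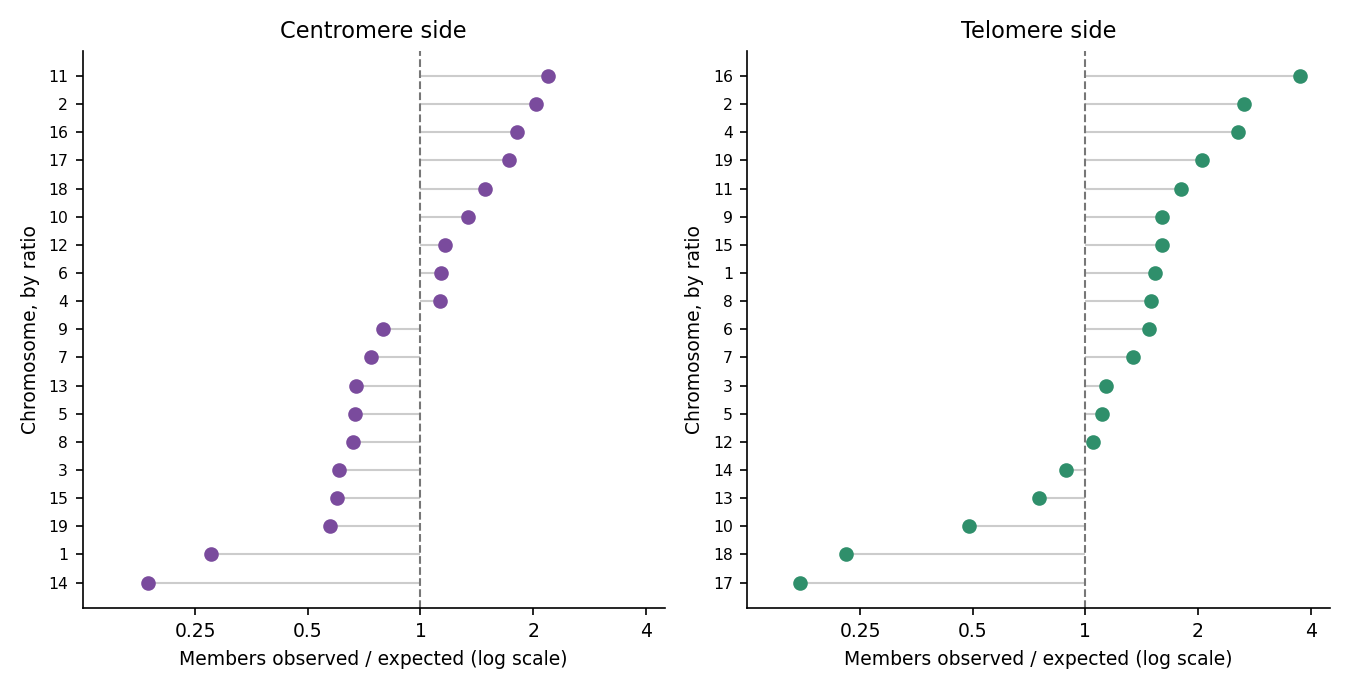
Members observed over expected (x axis, log scale) for each of the 19 autosomes, ordered by the ratio, on the centromere side (left) and the telomere side (right). Centromere-side ratios are spread around 1 from 0.187 to 2.19, and telomere-side ratios reach 3.74 on chromosome 16, while chromosomes 17 and 18 lie lowest.

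The first 0.5 Mb of the centromere side was led by few chromosomes. Chromosome 11 had 31 members there, of which 15 had a peak in all 10 libraries, and chromosome 9 had 22, of which 14 did. Chromosome 4 followed with 20 members and 4 in all libraries, chromosome 16 with 15 and 0, and chromosome 17 with 14 and 2, while chromosomes 1, 14 and 19 had 1 member each. With chromosomes 9 and 11 left out of the whole centromere side, the ratio was 1.10 and still above 1 in 10 of 10 libraries (p = 0.00195, exact sign-flip test, chosen after the counts had been seen).

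On chromosome 11, 29 members stood within 73.1 kb, from 3126916 to 3199976, where members followed each other at less than 20 kb. This cluster covers Sfi1, which encodes a centrin-binding protein of the centrosome and spindle poles, Drg1, which encodes a GTP-binding protein, and part of Pisd-ps1, a pseudogene of the mitochondrial phosphatidylserine decarboxylase. F0 CD libraries had peaks in 20, 22.5 and 25 of the 29 members (lowest, median and highest of 6), and F0 WD libraries in 24, 19, 19 and 24. The diets overlapped. Of the bases of these members 36.7% were masked on average, and 39.3% of their words of 50 bases occurred more than once in the reference. The strongest member, 94 bases from a start site of Sfi1 at 3142472 to 3142804, overlapped an exon and had fold enrichments of 9.94, 12.5 and 14.4 in F0 CD libraries (lowest, median and highest) and of 16.1, 12.9, 15.6 and 13.5 in F0 WD libraries. In this member 82.4% of the words occurred more than once.

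On chromosome 9, 16 members stood within 38.4 kb at the start of readable sequence, in the satellite block described above, which is annotated with the predicted genes Gm26870, Gm10717, Gm11168, Gm10722, Gm10719 and Gm10720. On average 96.4% of their bases were masked, the GC content was 34.2% and 69.5% of their words of 50 bases occurred more than once. All 6 F0 CD libraries had a peak in 16 of the 16, and the F0 WD libraries in 14, 15, 16 and 15. The strongest, at 3025390 to 3025691, had a median fold of 16.3, with 14.1, 16.1 and 17.9 in F0 CD libraries and 17.1, 16.2, 16.5 and 14.8 in F0 WD libraries, a narrow range for both diets. The part of multi-copy sequence in these folds was not tested.

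Smaller clusters on the centromere side stood on chromosome 16 from 3231644 to 3283353 with 11 members and on chromosome 4 from 3050025 to 3086023 with 9, both outside annotated genes. Fewer of their words of 50 bases occurred more than once, 3.15% and 0.725% on average. The members on chromosome 4 had peaks in 6 libraries at the median and a median fold of 2.62, and those on chromosome 16 in 3 libraries at 3.36.

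The 4 best ranked centromere-side members lay outside these clusters. The region at 3964398 to 3964714 on chromosome 2, between genes and 35259 bases from the start site of Gm13191, had fold enrichments of 26.9, 28.9 and 30.4 in F0 CD libraries (lowest, median and highest) and of 30.4, 29.5, 31.8 and 28.4 in F0 WD libraries. Of its words of 50 bases 0.746% occurred more than once. That measure counts exact copies in the reference alone, and the letters printed above for this region repeat a stretch in tandem. The region ranked at the 99.98 percentile of its lists at the median, and no library stood apart. The region at 3109783 to 3110183 on chromosome 12 followed with a median fold of 27.7, then 3050072 to 3050425 on chromosome 2 with 21.7 and 5860267 to 5860882 on chromosome 3 with 19.1. In these regions 45.2%, 0.0% and 47.6% of the words of 50 bases occurred more than once, in the same order. The part of multi-copy sequence in their folds was not tested. Other named members lay on chromosome 8 at 3556133 (14.5), chromosome 13 at 3372934 (13.4), chromosome 6 at 3201328 (13.0), chromosome 9 at 3032303 (11.1), chromosome 10 at 3116853 (10.5) and chromosome 18 at 3005174 (10.5). Each of these lay between annotated genes, apart from the one on chromosome 9, which lay in the satellite cluster, in Gm10717 and Gm26870.

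The strongest telomere-side members had lower folds. The region at 181917333 to 181918146 on chromosome 2, between genes, had folds of 13.9, 15.5 and 17.9 in F0 CD libraries (lowest, median and highest) and of 18.8, 12.2, 13.7 and 15.4 in F0 WD libraries. A region that overlaps an annotated exon of Lars2, the mitochondrial leucyl-tRNA synthetase gene, lay at 123461805 to 123462273 on chromosome 9. It had 12.9, 15.6 and 18.2 in F0 CD and 16.7, 12.6, 14.3 and 15.3 in F0 WD libraries. In both regions the diets overlapped. Whether the letters printed above for the chromosome 9 region belong to Lars2 or to a copy of other sequence was not tested. Words of 50 bases found more than once made up 3.40% of the chromosome 2 region and 27.9% of the Lars2 region. Their part in the folds was not tested. A region at 130594262 on chromosome 10, near the ferritin pseudogene Ftl1-ps2, had a median fold of 10.6, and one between genes at 181928965 on chromosome 2 had 9.98. The chromosome 10 region lay between annotated genes, 1557 bases from the start site of Ftl1-ps2. It held the unit TTAGGG 14 times in a row and reached into unknown bases (N). Of its words of 50 bases 48.6% occurred more than once. The regions on chromosomes 19 and 1 that shared words, at 61199601 and 195241550, had median folds of 14.1 and 13.3.

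A pair of related places led the remaining telomere-side members found in all 10 libraries. On chromosome 9 neighbouring regions at 124256274 and 124257354 had median folds of 8.15 and 11.8, and they shared words with 3 regions on chromosome 13 that lie in a cluster of 11 members from 119596768 to 119617573, over Tmem267, a transmembrane protein gene. The first region of that cluster had a median fold of 4.97. In that cluster F0 CD libraries had peaks in 6, 8 and 9 members (lowest, median and highest) and F0 WD libraries in 7, 5, 6 and 9. An intron of Grk5, a kinase of G protein-coupled receptors, held a region on chromosome 19 at 60924603 with a median fold of 9.77. A region over the start site of 3110070M22Rik, at 119488202 on chromosome 13 and also within Tmem267, had 6.65.

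Members were shared by more libraries than other regions. For the regions in which a library had a peak, the mean number of the other 9 libraries with a peak was 5.09 ± 0.341 on the centromere side and 3.86 ± 0.196 in the rest of the same chromosomes (difference 1.24 ± 0.172, SD, n = 10). For telomere-side regions it was 4.23 ± 0.236 against 3.85 ± 0.201 (difference 0.382 ± 0.141). Both differences were positive in 10 of 10 libraries, with p = 0.0027 by the exact sign-flip test after Benjamini-Hochberg adjustment over the 18 combinations of 9 measures and 2 sides. Each library's value counts the peaks of the other libraries in the same regions. The 10 values are therefore not independent of each other, and the p-value does not rest on 10 separate differences. Peaks in all 10 libraries were found in 55 of 595 centromere-side members (9.24%), in 26 of 785 telomere-side members (3.31%) and in 429 of 23170 regions of the rest (1.85%). Of the 55, 45 lay in the first 0.5 Mb, where they made up 24.5% of 184 members, and beyond it 10 of 411 (2.43%) had a peak in every library. On the telomere side 18 of the 208 members of the last 1.5 Mb (8.65%) did so and 8 of the 577 further in (1.39%), so the thinly filled outermost part held most of the regions shared by all.

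**Figure D4:**
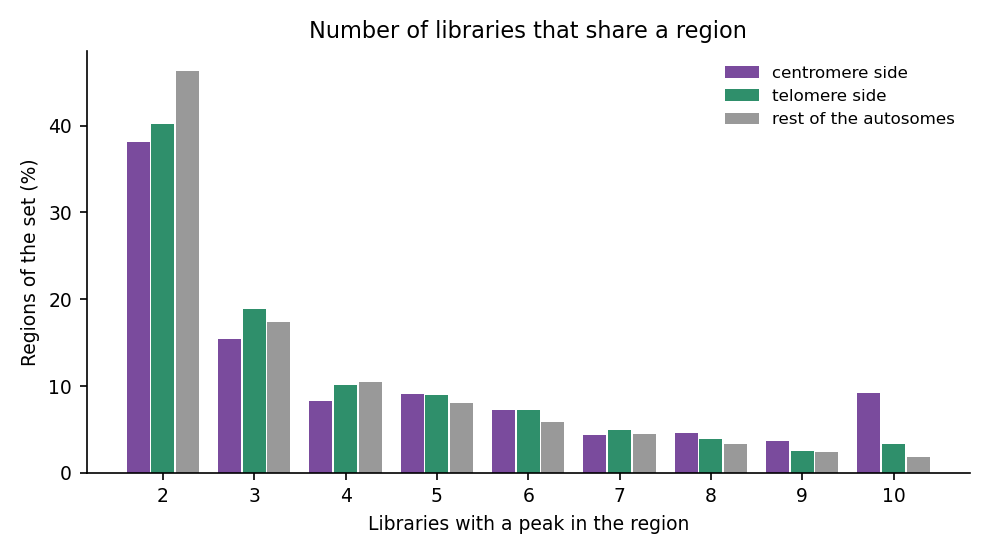
Share of regions (y axis, %) by the number of libraries with a peak (x axis, from 2, the minimum kept, to 10) for 595 centromere-side members, 785 telomere-side members and 23170 other autosomal regions. The bars at 10 libraries stand at 9.24%, 3.31% and 1.85%.

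Multi-copy words were more frequent on the centromere side and less frequent on the telomere side. Words of 50 bases that occur more than once in the reference made up 17.1% ± 1.84 of the regions on the centromere side against 7.75% ± 0.431 in the rest (difference 9.30 ± 1.65 points, higher in 10 of 10 libraries, SD, adjusted exact p = 0.0027). On the telomere side they made up 5.40% ± 0.466 against 8.04% ± 0.449, lower in 10 of 10 libraries (adjusted exact p = 0.0027). The read length was 50 bases, so these words stand for reads with more than 1 possible origin when taken without their mates. Copies that differ within the word or are missing from the reference are not counted. With the first 0.5 Mb left out, the centromere-side difference was 1.13 points and still positive in 10 of 10 libraries (adjusted exact p = 0.0050). On the centromere side 53 members had more than 50% of such words, of which 38 lay in the first 0.5 Mb, and on the telomere side 10 did.

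Start sites were near members more often on both sides. Regions within 1 kb of an annotated start site made up 13.0% ± 1.75 of a library's centromere-side regions against 6.27% ± 0.492 (difference 6.70 points, 10 of 10 libraries, adjusted exact p = 0.0027) and 8.40% ± 0.984 against 5.97% ± 0.445 on the telomere side (difference 2.43 points, 10 of 10 libraries, adjusted exact p = 0.0027). Beyond the first 0.5 Mb the centromere-side difference was 0.692 points and did not pass (7 of 10 libraries, adjusted exact p = 0.16). By region, 60 centromere-side and 65 telomere-side members were near a start site, of which 36 and 41 belonged to protein-coding genes. These comparisons did not take into account how many annotated genes the windows hold per Mb, and the part of gene density was not tested. CA or TG runs were carried by 36.9% ± 3.97 of centromere-side regions against 51.7% ± 1.98 (difference -14.8 points, adjusted exact p = 0.0027) and by 48.2% ± 2.64 of telomere-side regions against 51.4% ± 2.27 (difference -3.20 points, lower in 9 of 10 libraries, adjusted exact p = 0.0050). In the first 0.5 Mb, 17.4% of members had a run, and without that part the centromere-side difference turned to 1.73 points and did not pass (adjusted exact p = 0.15).

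**Figure D5:**
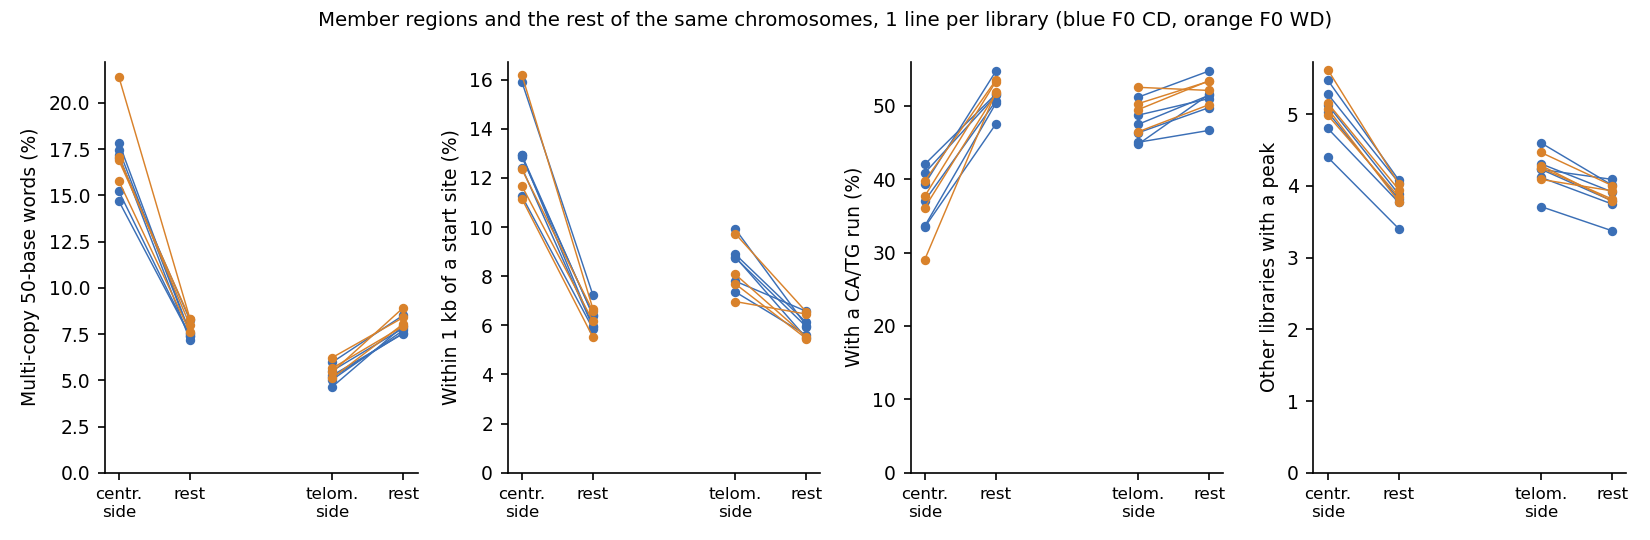
Values per library (10 lines, blue F0 CD and orange F0 WD) of members on each side and of the rest of the same chromosomes, for the percent of words of 50 bases found more than once, of regions within 1 kb of a start site and of regions with a CA or TG run, and for the number of other libraries with a peak. Multi-copy words average 17.1% on the centromere side and 5.40% on the telomere side, on either side of the values of the rest.

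Peaks ranked higher on the centromere side and lower on the telomere side. For rank and local background, the median over a side's regions was set against an average of the medians by chromosome in the rest. This average was weighted by the number of the side's regions on each chromosome. The percentile of fold within a library's list was 68.8 ± 2.65 on the centromere side against 61.6 ± 1.81 in the rest (difference 7.22, 10 of 10 libraries, adjusted exact p = 0.0027). It was 57.4 ± 4.22 against 61.8 ± 1.95 on the telomere side (difference -4.44, lower in 9 of 10 libraries, adjusted exact p = 0.0070). With regions of more than 50% multi-copy words left out, the centromere-side difference was 1.97 and no longer passed. Telomere-side regions were wider by 0.10 on the log2 scale and had a local background higher by 0.085 (10 of 10 libraries, adjusted exact p = 0.0027 each), and the centromere-side differences were 0.056 and 0.056 (10 of 10 libraries, adjusted exact p = 0.0027 each). The centromere-side width difference was 0.0046 with 3 libraries required and did not pass (adjusted exact p = 0.73). The background difference turned to -0.023 without the first 0.5 Mb (adjusted exact p = 0.0088), and did not pass at 0.022 without chromosome 11 or at 0.021 without multi-copy regions (adjusted exact p = 0.060 and 0.068). The GC content of the regions themselves, 45.9% and 46.0% on the 2 sides, differed from the rest by -0.157 and -0.036 points, which did not pass (adjusted exact p = 0.17 and 0.80). With the first 0.5 Mb left out, the centromere-side GC difference was 0.596 points and passed (adjusted exact p = 0.0070). Masked bases were lower by 2.16 points on the centromere side (10 of 10 libraries, adjusted exact p = 0.0027), but without chromosome 11 the difference was 0.794 in the other direction. On the telomere side they were higher by 1.65 points in 8 of 10 libraries (adjusted exact p = 0.046), and this call was lost without any 1 of 8 libraries, all but F0 CD replicate 1 and F0 WD replicate 2, with differences between 0.996 and 1.52 points in these 8.

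Gene annotation placed 291 centromere-side members between genes, 249 in introns and 55 in exons (48.9%, 41.8% and 9.24%), and 356, 384 and 45 telomere-side members (45.4%, 48.9% and 5.73%), against 48.0%, 46.7% and 5.26% in the rest. Gene families known to expand near chromosome ends contributed few members by their nearest start site. Vomeronasal receptors, which detect pheromones, were nearest to 11 centromere-side members (1.85%), 5 on the telomere side (0.637%) and 36 in the rest (0.155%). Olfactory receptors were nearest to 0, 5 and 94 regions, zinc finger genes of the Zfp series to 2, 0 and 154, and Speer, Nlrp and defensin genes to no member. Sfi1 alone was nearest to 17 centromere-side members, and microRNA genes to 3 and 14 members.

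Several long genes held many members within their bodies, which is given as a count without regard to gene length. On the centromere side Sfi1 held 22, Camk1d, a calcium/calmodulin-dependent kinase gene, 17, Frmd4a, a scaffold gene of the cell cortex, 12, and Arid1b, a subunit gene of the BAF chromatin remodelling complex, 8. Of the Camk1d members 1 had a peak in all 10 libraries, against 9 in Sfi1. On the telomere side Cdh4, a cadherin gene, held 24, Dscam, a neuronal adhesion gene, 14, Prdm16, a transcriptional regulator of brown fat, 14, Erg, an ETS transcription factor gene, 12, Pard3, a cell polarity gene, 12, and Shank2, a postsynaptic scaffold gene, 10. None of the members in these 6 telomere-side genes had a peak in every library.

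The diets were compared last. The share of a library's autosomal regions that lay on the centromere side was 2.62%, 3.0% and 3.23% in F0 CD (lowest, median and highest of 6) and 2.90%, 2.91%, 2.91% and 3.05% in F0 WD. The means were 2.97% ± 0.215 and 2.94% ± 0.070 (SD), and the difference of -0.024 points (SE 0.095) did not pass an exact permutation test over all 210 assignments of the libraries (two-sided p = 0.79). Telomere-side shares were 3.27%, 3.39% and 3.62% in F0 CD and 3.14%, 3.79%, 3.23% and 3.85% in F0 WD. The means were 3.42% ± 0.142 and 3.5% ± 0.369, and the difference of 0.082 points (SE 0.193) did not pass (exact p = 0.61). The groups overlapped on both sides, and the smallest p this test can reach is 0.00952.

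Single regions were compared by detection, with Fisher's exact test on the libraries with and without a peak. Over the 24763 regions of the series, 0.553% reached an unadjusted p under 0.05 with more F0 WD libraries showing a peak, and 0.468% with more F0 CD libraries. Among centromere-side members, 1 of 595 (0.168%) was called toward F0 WD and 5 (0.840%) toward F0 CD. Among telomere-side members, 7 of 785 (0.892%) were called toward F0 WD and 3 (0.382%) toward F0 CD. A region in 2 libraries cannot reach p under 0.05 in Fisher's exact test. Such regions make up 38.2% of centromere-side members, 40.1% of telomere-side members and 46.3% of the rest. A region in 3 libraries can be called only toward F0 WD, so the directions have unequal chances of a call. The split by direction did not hold under other settings. Centromere-side members split into 3 toward F0 WD and 3 toward F0 CD with lists of equal length, and 3 and 2 without F0 WD replicate 4. Telomere-side members split into 3 and 4, 4 and 5, and 4 and 8 without F0 WD replicates 1, 2 and 3. With so few regions called, no difference from the share over the whole series is read from these counts. In all, 0 regions passed Benjamini-Hochberg adjustment over the series, where every adjusted p was 1 in Fisher's exact test. The smallest p that Fisher's exact test can give here is 0.0048, for a complete split of the diets. Very many of the 24763 regions would need such a split before any could pass, so no conclusion about diet is drawn from the adjustment. No other tool was run on the detection table, since the lists hold no read counts for regions without a peak.

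The called centromere-side members toward F0 CD were led by an intron of Frmd4a on chromosome 2, from 4222584 to 4223120, with a peak in 6 of 6 F0 CD and 0 of 4 F0 WD libraries (unadjusted exact p = 0.0048, the smallest possible). Its summits held 12 to 24 reads, with folds of 2.85, 3.87 and 4.75 in the F0 CD libraries (lowest, median and highest). An intron of Plekhg1, from 3796275 to 3796627 on chromosome 10, a region near Gstp3, a glutathione transferase gene, at 4066976 on chromosome 19, and one near Gm11962 at 5470671 on chromosome 11 were found by 6 control and 1 Western diet library (exact p = 0.033). A region near Gm47679 at 5695504 on chromosome 10 had peaks in 5 and 0 (exact p = 0.048). The region toward F0 WD, near Gm11786 at 3342335 on chromosome 4, had peaks in 4 of 4 F0 WD libraries with folds of 4.88, 5.79, 6.04 and 3.61, and in 1 F0 CD library with 3.88. Of these 6 regions, the one on chromosome 4 lay in the first 0.5 Mb and the others did not.

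Of the called telomere-side members, the one at 150907683 to 150908220 on chromosome 5, near Gm43298, had peaks in 6 F0 CD and 0 F0 WD libraries. Introns of Hhat, the acyltransferase gene for hedgehog proteins, at 192583259 on chromosome 1, and of Dscam at 96777972 on chromosome 16 had peaks in 5 and 0 (exact p = 0.048 each). Toward F0 WD, peaks of 3 F0 WD libraries alone (exact p = 0.033) were found in an exon of Itga7, a laminin-binding integrin gene, at 128949508 on chromosome 10, in introns of Erg at 95472052 on chromosome 16 and of Pard3 at 127501361 on chromosome 8, in an intron of 5830444B04Rik near Cfap74, a gene of motile cilia and flagella, at 155405654 on chromosome 4, and near Gm45805 at 126737239 on chromosome 8. Introns of Rbms2, an RNA-binding protein gene, at 128145267 on chromosome 10 and of Negr1, a neuronal adhesion gene, at 157115842 on chromosome 3 were found by 1 control and 4 Western diet libraries (exact p = 0.048 each). Summits of all 16 called members held 9 to 26 reads. The smallest called summits of the libraries held 9 to 13 reads, so a library without a peak may lie just under its threshold, and a difference in detection at this depth does not give the difference in accessibility.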

How the data were processed

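Read pairs of 50 bases were trimmed by the authors (Trim Galore 0.6.10) and mapped by Bowtie2 2.4.5 onto mm10, also called GRCm38. The aligner was allowed to report several places for a read pair. Duplicates (Picard 2.24.0) and alignments of low mapping quality were dropped, the transposase offset was corrected and short fragments were kept. Peaks were called in each library separately by MACS2 2.2.7.1. Versions are those named in the processing notes of the submitters. In the deposited lists the score is the integer score that MACS2 made for the authors from the q value, the fold enrichment is a ratio of summit reads to local background with a pseudocount, and the p and q values are given by the authors as −log10 values. How reporting several places and dropping low mapping quality changed peaks in repeated sequence was not tested.

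Reads at a summit and the local background were solved from fold and −log10 p. The total depth is not held by the lists. The smallest called summits held 9 to 13 reads, and the lowest backgrounds were 2.11 to 4.42 reads, which sets the precision of detection. Regions were annotated with GENCODE M21, and sequence, masked (lower-case) bases and copy numbers of 50-base words were read from the GRCm38.p6 reference.

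The 2 sides were compared with the rest by exact sign flips of 10 library differences (1024 patterns), with Benjamini-Hochberg adjustment over 18 measures and sides. Diets were compared by exact permutation of 210 assignments and by Fisher's exact test over all 24763 consensus regions, at an unadjusted p under 0.05 and with adjustment beside it. No count model was fitted, since the lists give no counts per region. Nothing in the labels beyond the numbering ties libraries across diets, and p-values measure the spread between these libraries.

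Named regions are, per side, the 12 best ranked of those in all 10 libraries, every member called by Fisher's exact test, and the 3 chromosomes with the highest and the 3 with the lowest ratios. Clusters (at least 8 members, gaps of at most 20 kb), genes with many members and shared words were chosen after the values were seen. A named region and its sequence are not reported here. The members and lists were chosen with earlier results of these data known. When a library was left out, the sequence measures used regions merged from all lists. The tests were checked on simulated data. Scripts ran in Python 3.11.15 with pandas 2.3.3, numpy 2.4.6, matplotlib 3.10.9 and scipy 1.17.1. Alternatives were the number of libraries required, q under 0.01, a gap of 100 bp, window sizes, multi-copy regions left out, equal lists, N bases counted, 1 chromosome left out, mid-p, each library left out and a replicate block.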

Additional observations from a re-analysis of the deposited data

Results flagged for a closer look

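Among 44 groups of libraries examined for a value apart from the others, 3 values stood apart. The groups share libraries and peaks, and the rate that chance gives for them was not tested, so nothing beyond chance is read from this count. All 3 belonged to F0 WD replicate 4, the library with the shortest peak list (13366 peaks). Its share of regions on the centromere side was 3.05%, while the other 3 F0 WD libraries lay between 2.90% and 2.91%. Its log2 ratio of centromere-side regions to the expected number was 0.39, against 0.31 to 0.32 in the others. Its excess of regions near a start site on the centromere side was 9.53 points, against 5.51 to 5.78 points. These 3 values come from overlapping sets of the same peaks. F0 CD libraries ranged from 2.62% to 3.23% in the share, so the value of 3.05% lay within the range of the other diet.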

How the results depend on the processing

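Of 386 values recomputed, 328 kept their direction and side of the threshold (counts: stayed within 1.5 times). The densities kept both when any 1 library was left out. Centromere-side density turned to -0.67 (log2) with N bases counted, because the window then holds 3 Mb of them, and to -0.14 without the first 0.5 Mb. Telomere-side density turned to -0.19 with windows of 1.5 Mb, to -0.29 for the last 1 Mb and to -0.63 against the next 3 Mb, and the difference between the sides to 0.79 with windows of 1.5 Mb. These alternatives alter the window, the reference or the bases counted, and density varies along the ends.

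On the centromere side, masked bases turned to 0.79 points without chromosome 11 and 1.83 without the first 0.5 Mb. GC content turned to 0.029, 0.35 and 0.60 points with 3 libraries required, without multi-copy regions and without the first 0.5 Mb, passed at -0.35 without the chromosome with the largest difference, and ranged from -0.23 to -0.078 with 1 library left out. Without the first 0.5 Mb, start sites (0.69), rank (2.14), CA or TG runs (1.73, turned) and background (-0.023, turned) also changed. Width did not pass with 3 libraries required (0.0046), nor rank (1.97) and background (0.021) without multi-copy regions, nor background without that chromosome (0.022). Telomere-side masked bases turned to -1.11 with 3 libraries required, did not pass without multi-copy regions (1.43) or chromosome 16 (1.19), and ranged from 1.00 to 2.18 with 1 library left out. Telomere-side GC content, never past the threshold, turned to 0.044 with 3 libraries and 0.35 without chromosome 16, and ranged from -0.16 to 0.062 with 1 library left out. Their causes were not tested.

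The diet differences in share never passed, and their signs did not hold. Centromere-side values were 0.0057 points with windows of 6 Mb and -0.117 to 0.022 with 1 library left out. Telomere-side values were -0.062 with 1 library required, -0.20 with windows of 6 Mb and -0.052 to 0.186 with 1 library left out. With the replicate block the differences were 0.028 and 0.035 points (exact p = 0.875 each). Same-numbered libraries did not deviate together (correlations from -0.011 to 0.036 over 4 numbers). These values rest on detection of peaks alone, so they cannot exclude that libraries of the same number were handled together. Called members numbered 10 (centromere side) and 22 (telomere side) by mid-p, 3 and 24 on the telomere side with windows of 1.5 and 6 Mb, and 6 there with equal lists. With 1 library left out they ranged from 5 to 11 and from 7 to 19. Without F0 CD replicates 1, 2, 5 or 6 there were 10, 10, 10 and 11 on the centromere side, and without replicates 2, 3, 5 or 6 there were 16, 17, 18 and 19 on the telomere side, since fewer libraries change which patterns pass. The summits of the called members held 9 to 26 reads, and the part of depth in the calls was not tested.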

Other observations

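Beyond the clusters described above, 3 clusters on the telomere side lay in or near noncoding genes. On chromosome 16 the gene 1600002D24Rik held 14 members, and 2 clusters that overlapped it and reached beyond those members had 8 members from 95752939 to 95797909 and 11 from 95852691 to 95944190, with peaks in 2 and 4 libraries at the median. On chromosome 8, 10 members stood from 126481982 to 126568524 over Gm26759, also with a median of 2 libraries. In none of these clusters did a member have a peak in all 10 libraries, unlike the clusters on chromosomes 9 and 11 near the centromere, with 14 and 13, and on chromosome 13 near the telomere, with 4. Few of their words of 50 bases occurred more than once (1.04%, 2.95% and 2.11% on average), and their median folds were 3.84, 3.8 and 3.96.

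Of the members in few libraries, 227 centromere-side regions (38.2%) and 315 telomere-side regions (40.1%) had a peak in the minimum of 2 libraries, against 46.3% in the rest. Peaks of both diets were found in 464 centromere-side and 580 telomere-side members, while 111 (18.7%) and 158 (20.1%) members had F0 CD peaks only, against 22.1% in the rest, and 20 (3.36%) and 47 (5.99%) had F0 WD peaks only, against 5.32%. The numbers of 6 and 4 libraries make these last counts unequal by design.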
